A study of Rattus norvegicus with 11 samples.

Results

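The genes described here are the D-type cyclins Ccnd1, Ccnd2 and Ccnd3, the mitotic cyclin Ccnb1, the kinases Cdk1 and Cdk4, the replication clamp Pcna and the inhibitors Cdkn1a, Cdkn1b and Cdkn2b, measured in rat lung alveolar epithelial cells. Every probe set annotated to exactly 1 gene, where that gene was one of the 10, was taken. This gave 21 probe sets for the 10 genes, out of 8740 tested probe sets and 4736 genes. Total RNA was measured on 11 Affymetrix arrays, 1 sample each. The groups were freshly isolated type II (TII) cells on 4 arrays (day 0), TII cells after culture on 3 arrays (day 7) and freshly isolated type I (TI) cells on 4 arrays (day 0). The study compares the thin TI cells, which cover most of the alveolar surface, with the surfactant-producing TII cells and with TII cells in culture. The groups come from the sample descriptions and titles, because the source field names TI cells for all 11 arrays. Strain, age, sex, isolation method, culture substrate and medium are not given in those labels. Nothing in the labels ties the arrays to animals or separate cultures, and the p-values therefore measure only the spread between these arrays, which may be technical.

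D-type cyclins bind Cdk4 and start the phosphorylation of the retinoblastoma protein that lets a cell leave G1. Cdkn2b (p15INK4b), an INK4 protein induced by TGF-beta in epithelial cells, blocks Cdk4 directly, whereas Cdkn1a (p21) and Cdkn1b (p27) act on the kinases of several cyclins. Pcna holds DNA polymerase on the template during replication and repair, and Ccnb1 with Cdk1 forms the kinase that drives entry into mitosis. In the lung the TII cell is the alveolar epithelial cell that divides and can give rise to TI cells.

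Promoter windows from RefSeq (build GRCr8), 250 bases before to 50 bases after the annotated start, matched 8 of the 10 genes. The windows for Ccnd1 and Ccnd2 were not in the table. The 5 shown belong to the gene with the widest range between groups (Cdkn2b), the D cyclin Ccnd3 that was also highest in culture, Pcna, which had the reverse order between fresh TII and cultured cells, and the mitotic pair Cdk1 and Ccnb1. Each is printed on the gene's own strand, 5′ to 3′. Capitals mark matches, on either strand, to the GC box (GGGCGG) and the CRE (TGACGTCA) and SMAD half-site (CAGAC) in Cdkn2b, to the GC box and the CCAAT box (CCAAT) in Ccnd3, Pcna and Ccnb1, and to CCAAT, the cell cycle homology region letters TTTGAA and the E2F site TTTCGCGC in Cdk1. No capitals-marked match overlaps another. Some matches were left in lower case: CAGAC in Ccnd3 and in Ccnb1, a GC box in Cdk1 and TTTGAA in Cdkn2b.
Cdkn2b, chr5:109134806-109135105, minus strand: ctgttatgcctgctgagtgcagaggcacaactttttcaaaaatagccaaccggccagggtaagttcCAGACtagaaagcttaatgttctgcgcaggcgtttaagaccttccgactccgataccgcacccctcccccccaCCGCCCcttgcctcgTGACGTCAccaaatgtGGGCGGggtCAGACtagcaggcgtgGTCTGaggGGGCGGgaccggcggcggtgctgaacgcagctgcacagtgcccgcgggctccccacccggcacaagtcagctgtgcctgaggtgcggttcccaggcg
Ccnd3, chr9:20897826-20898125, minus strand: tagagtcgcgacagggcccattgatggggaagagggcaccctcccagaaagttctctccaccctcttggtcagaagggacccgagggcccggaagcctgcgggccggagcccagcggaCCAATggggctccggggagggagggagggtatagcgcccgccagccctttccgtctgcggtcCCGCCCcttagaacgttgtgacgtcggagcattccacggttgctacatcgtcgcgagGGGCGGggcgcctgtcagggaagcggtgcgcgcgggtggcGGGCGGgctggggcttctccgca
Pcna, chr3:139955771-139956070, minus strand: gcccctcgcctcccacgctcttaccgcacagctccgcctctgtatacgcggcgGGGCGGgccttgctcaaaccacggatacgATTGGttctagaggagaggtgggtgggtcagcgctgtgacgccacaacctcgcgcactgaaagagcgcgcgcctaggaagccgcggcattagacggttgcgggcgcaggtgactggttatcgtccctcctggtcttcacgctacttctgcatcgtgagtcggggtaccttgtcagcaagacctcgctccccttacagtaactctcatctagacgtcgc
Cdk1, chr20:19265043-19265342, plus strand: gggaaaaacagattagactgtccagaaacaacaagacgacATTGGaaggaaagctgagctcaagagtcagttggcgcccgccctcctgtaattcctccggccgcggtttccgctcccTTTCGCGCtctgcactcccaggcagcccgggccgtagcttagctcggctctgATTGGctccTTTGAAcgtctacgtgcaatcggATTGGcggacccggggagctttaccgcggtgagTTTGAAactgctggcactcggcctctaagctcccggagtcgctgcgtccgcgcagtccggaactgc
Ccnb1, chr2:33655176-33655475, minus strand: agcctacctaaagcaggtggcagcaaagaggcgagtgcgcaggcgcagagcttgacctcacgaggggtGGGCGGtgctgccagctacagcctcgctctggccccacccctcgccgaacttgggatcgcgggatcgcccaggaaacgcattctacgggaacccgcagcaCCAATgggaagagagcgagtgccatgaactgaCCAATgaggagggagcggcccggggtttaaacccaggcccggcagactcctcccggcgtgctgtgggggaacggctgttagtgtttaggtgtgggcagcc

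The Cdkn2b window held 3 GC boxes, 3 SMAD half-sites and 1 CRE. At least 3 GC boxes occurred in 8.97% of the 33469 windows in the RefSeq table, at least 3 CAGAC matches in 4.17% and the CRE in 1.8%. At least 1 CAGAC match occurred in 50.1%. Ccnd3 also had 3 GC boxes, and Pcna had 1 GC box and 1 CCAAT box, motifs found in 33.1% and 37.5% of windows. Cdk1 had 3 CCAAT boxes (3.02% of windows had as many), 2 TTTGAA matches (2.51%) and 1 TTTCGCGC match (0.3%). In Cdk1 and in Ccnb1 a pair of CCAAT boxes lay on 1 strand with starts 32 bases apart, at -81 and -49 in Cdk1 and at -82 and -50 in Ccnb1, counted from the start to the first base of the match on the printed strand. Such a pair was found in 89 windows (0.27%). These are matches of letters, and the arrays did not measure binding of any factor.

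The arrays had similar scales, with medians between 5.43 and 5.51 and standard deviations between 1.78 and 1.98 on the log2 scale. Mean levels of type I cell markers (5 of 8 listed genes measured) were 6.18 to 6.25 on fresh TII arrays and 7.50 to 8.15 in culture. On fresh TI arrays they were 9.76 to 10.20. Cav1 of this list did not rise in culture, with means of 5.92 in fresh TII, 5.86 in culture and 9.67 in fresh TI. Type II cell markers (7 of 10 measured) read 11.57 to 11.74 on fresh TII arrays and 6.85 to 7.34 in culture. On fresh TI arrays they read 9.373, 10.015, 10.001 and 8.671 in replicates 1 to 4, well above culture. Transcripts of at least some of these genes were therefore present in the TI RNA. All 7 were called higher in fresh TI than in culture, where 34.2% of all genes were. Muc1, at 6.025 to 6.981 on TI arrays, still overlapped culture, at 5.416 to 6.478. Fibroblast and smooth muscle markers (all 16 measured) lay at 5.51 to 5.75, 6.07 to 6.49 and 6.22 to 6.50. Of these, 9 were called higher in fresh TI than in fresh TII, where 33.0% of all genes were. Their median difference was 0.264, against 0.111 over all genes. Macrophage and leukocyte markers (13 of 19 measured) lay at 5.595 to 5.799, 5.27 to 5.75 and 5.61 to 5.80. These means hide opposite changes. Cd74 fell from a mean of 11.03 in fresh TII to 7.41 in culture, while Cd53 rose from 4.67 to 6.60. Of the 13, 2 were called higher and 2 lower in culture than in fresh TII, where 20.5% and 14.0% of all genes were. In fresh TI against fresh TII 5 were higher and 2 lower, where all genes gave 33.0% and 21.2%. Endothelial markers (7 of 14) lay between 5.48 and 5.87 in the 3 groups, and airway markers (6 of 11) at 6.91 to 7.01, 5.62 to 5.79 and 5.83 to 5.97. The 3′ minus 5′ signal of beta-actin, a sign of RNA integrity, was -0.33 to -0.08 in culture and 0.32 to 0.43 on fresh TII arrays, a difference of -0.53 (exact permutation p = 0.0571, the smallest that 3 against 4 arrays can give, 0.114 adjusted over 4 tests, two-sided). That of GAPDH was 0.30 to 0.45 in culture and 0.47 to 0.57 on fresh TII arrays, a difference of -0.13 with the same exact permutation p and adjusted p. On fresh TI arrays the differences from fresh TII were -0.04 (exact permutation p = 0.514) and 0.03 (0.657). The part of these levels in the results below was not tested, and in bulk RNA a change in the share of a cell type cannot be told apart from a change in RNA per cell.

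**Figure D1:**
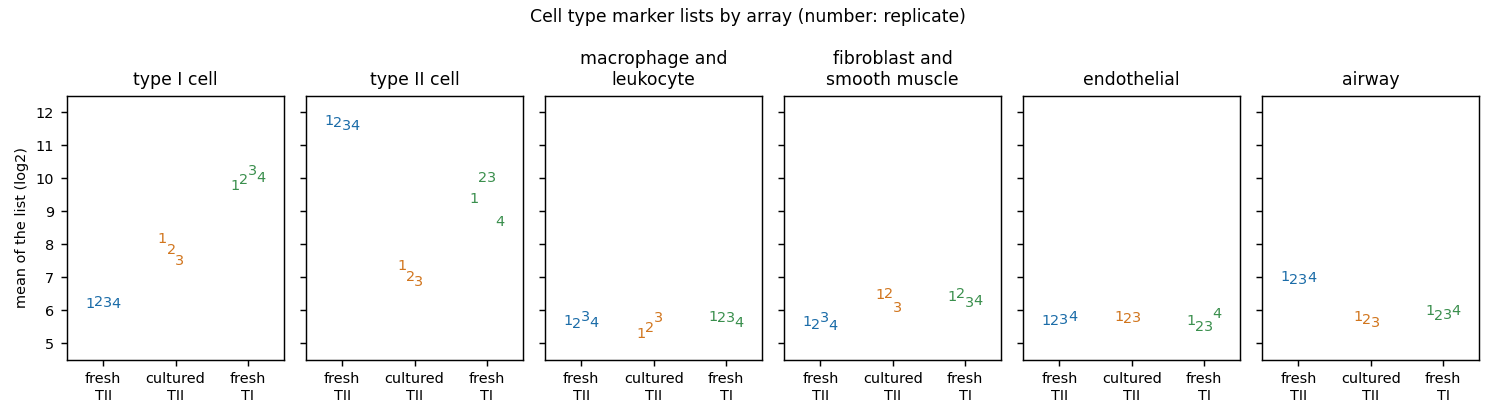
Mean log2 level of 6 cell type marker lists (vertical axis) on each array, grouped as fresh TII, cultured TII and fresh TI, with the replicate number as the plotting symbol. The mean of the type I list ranks fresh TI above cultured TII above fresh TII. The mean of the type II list on fresh TI arrays, at 8.67 to 10.02, stands between the other groups.

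Differences were tested with limma over all 8740 probe sets with Benjamini-Hochberg adjustment, and a gene was called at an adjusted p under 0.05 on its brightest probe set. Culture against fresh TII called 8 of the 10 genes, 6 higher (Ccnd2, Ccnd3, Ccnb1, Cdk1, Cdk4, Cdkn2b) and 2 lower (Ccnd1, Pcna). Over all genes this comparison called 34.6%, with 20.5% higher and 14.0% lower. Fresh TI against fresh TII also called 8 of the 10, 4 higher (Ccnd2, Ccnd3, Ccnb1, Cdkn2b) and 4 lower (Ccnd1, Cdk4, Pcna, Cdkn1b), where all genes gave 54.2%, with 33.0% higher and 21.2% lower. Fresh TI against cultured TII called 8 of the 10, 0 higher and 8 lower (all but Ccnd2 and Ccnb1), where all genes gave 60.0%, with 34.2% higher and 25.8% lower. Without dim probe sets the share of higher genes among all called genes in this last comparison went from 57.0% to 45.7%. The median difference of the 10 genes was 0.43 for culture minus fresh TII, against -0.005 over all genes. It was -0.20 for fresh TI minus fresh TII, against 0.11 over all genes, and -0.62 for fresh TI minus cultured TII, against 0.11. The comparisons share arrays in pairs, so their results are not independent of each other.

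**Figure D2:**
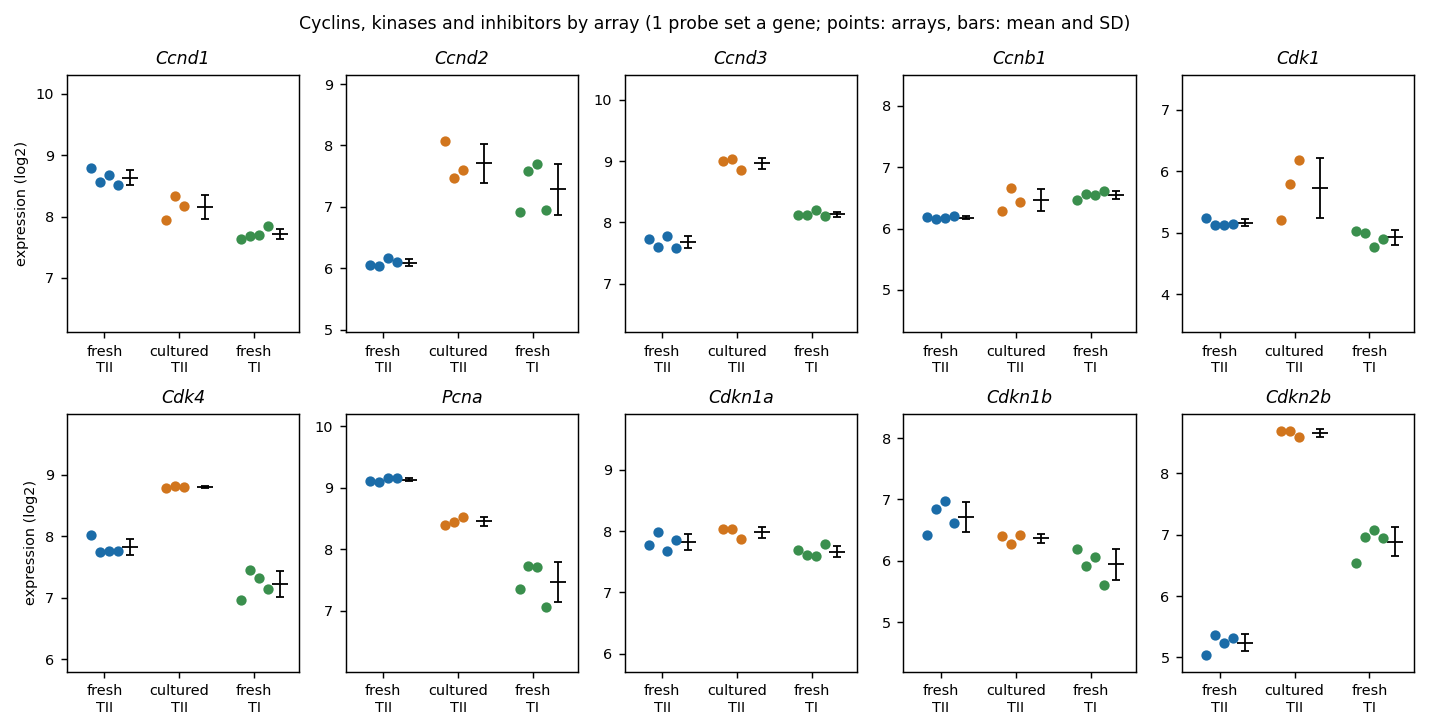
Log2 expression (vertical axis, a span of the same size in each panel) of the 10 genes on each array, with group mean and SD, for the brightest probe set of each gene. Cdkn2b runs from 5.04 to 5.36 on fresh TII arrays to 8.59 to 8.69 in culture, Ccnd2 and Ccnd3 are lowest on fresh TII arrays, and Pcna and Ccnd1 are highest there.

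The 3 D cyclins did not move together. Ccnd2 and Ccnd3 rose in culture and were also higher in fresh TI than in fresh TII cells, while Ccnd1 was lower in both. The Ccnd1 probe set D14014_at read 8.79, 8.57, 8.67 and 8.51 on fresh TII arrays, 7.95, 8.34 and 8.18 in culture, and 7.64, 7.68, 7.70 and 7.84 on fresh TI arrays. All fresh TII arrays lay above all cultured arrays, and all cultured arrays above all TI arrays. The log2 difference was -0.48 ± 0.10 (SE) for culture minus fresh TII (adjusted p = 0.00205) and -0.92 ± 0.09 for fresh TI minus fresh TII (adjusted p = 4.74e-06), a 1.90-fold lower level. Fresh TI minus culture was -0.44 ± 0.10 (adjusted p = 0.00247), but quantile normalization took this to -0.16 (adjusted p = 0.237).

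Ccnd1 had 5 probe sets, and they disagreed. D14014_g_at and X75207_s_at gave differences of -1.23 and -1.19 for fresh TI minus fresh TII, with adjusted p of 2.87e-07 and 2.86e-06, the direction of D14014_at. In culture D14014_g_at fell by 0.56 (adjusted p = 0.000678) and X75207_s_at fell by 0.36 (adjusted p = 0.0402), the latter above 0.05 without cultured replicate 1 (-0.22, adjusted p = 0.199) and when fresh TII replicate 1, 2 or 4 was left out. The probe set rc_AA957218_at was higher in fresh TI than in fresh TII by 0.23 ± 0.09 (adjusted p = 0.0439), with overlapping arrays, and leaving out any of 8 of the 11 arrays took it past 0.05. The dimmest, rc_AI231257_at, lay between 4.65 and 4.94 on all 11 arrays and passed the test in no comparison.

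Ccnd2 was the D cyclin with the widest range of group means, 1.62 on the log2 scale. Its probe set rc_AA899106_at read 6.06, 6.04, 6.17 and 6.10 on fresh TII arrays, 8.07, 7.47 and 7.60 in culture, and 6.91, 7.58, 7.69 and 6.95 on fresh TI arrays. The fresh TII arrays were tight and lay below every other array, whereas cultured and TI arrays overlapped. It rose by 1.62 ± 0.19 in culture, 3.08-fold (adjusted p = 1.87e-05), and was 2.29-fold higher in fresh TI than in fresh TII, by 1.19 ± 0.18 (adjusted p = 0.000141). The difference of fresh TI from culture was -0.43 ± 0.19 (adjusted p = 0.0682) and passed the test without cultured replicate 2, TI replicate 2 or TI replicate 3, at adjusted p of 0.0477, 0.0349 and 0.0187.

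The second Ccnd2 probe set, D16308_at, read 5.78, 5.83, 5.95 and 6.22 on fresh TII arrays, 7.73, 7.69 and 7.55 in culture, and 6.70, 7.29, 7.21 and 6.78 on fresh TI arrays. On this probe set the groups did not overlap. Culture exceeded fresh TII by 1.71 ± 0.15 (adjusted p = 1.1e-06), and fresh TI minus culture was -0.66 ± 0.15 (adjusted p = 0.00232). Both probe sets split the TI arrays in the same way, with replicates 2 and 3 above replicates 1 and 4. Those are the TI arrays with the higher type II marker means, 10.015 and 10.001 against 9.373 and 8.671. The split was not particular to Ccnd2. On TI arrays Cdk4 read 7.456 and 7.323 in replicates 2 and 3 against 6.968 and 7.149 in replicates 1 and 4. The leukocyte gene Cd53 read 5.869 and 5.672 against 5.144 and 4.365. Cdk1 and Ccnb1 did not show it. The part of the type II level in the Ccnd2 spread was not tested.

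Ccnd3 stood highest in culture and lowest on fresh TII arrays. Its probe set D16309_g_at read 7.74, 7.61, 7.78 and 7.59 on fresh TII arrays, 8.999, 9.030 and 8.857 in culture, and 8.12, 8.12, 8.20 and 8.10 on fresh TI arrays. The groups were tight and did not overlap. Ccnd3 rose by 1.28 ± 0.08 in culture, 2.44-fold (adjusted p = 2.57e-08), and fresh TI exceeded fresh TII by 0.46 ± 0.07 (adjusted p = 0.000169). Fresh TI minus culture was -0.83 ± 0.08 (adjusted p = 1.89e-06).

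The other Ccnd3 probe sets gave smaller values. D16309_at and U49935mRNA_s_at rose by 0.95 and 0.80 in culture (adjusted p = 1.46e-06 and 6.77e-06) and were higher in fresh TI than in fresh TII by 0.41 and 0.27 (adjusted p = 0.000917 and 0.0111). U49935mRNA_r_at passed no test, with differences of 0.10, 0.09 and -0.01 for culture minus fresh TII, fresh TI minus fresh TII and fresh TI minus culture. All 4 probe sets had a positive difference from fresh TII in both other groups.

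Cdk4, the kinase partner of the D cyclins, rose in culture as Ccnd2 and Ccnd3 did, but was lower in fresh TI cells than in either other group. Its single probe set L11007_at read 8.02, 7.75, 7.77 and 7.76 on fresh TII arrays, 8.78, 8.82 and 8.80 in culture, and 6.97, 7.46, 7.32 and 7.15 on fresh TI arrays. The cultured arrays were within 0.038 of each other, and no groups overlapped. Culture exceeded fresh TII by 0.98 ± 0.11, 1.97-fold (adjusted p = 1.2e-05). Fresh TI minus fresh TII was -0.60 ± 0.10 (adjusted p = 0.000395), and fresh TI minus culture was -1.58 ± 0.11, a 2.99-fold lower level (adjusted p = 1.69e-07).

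**Figure D3:**
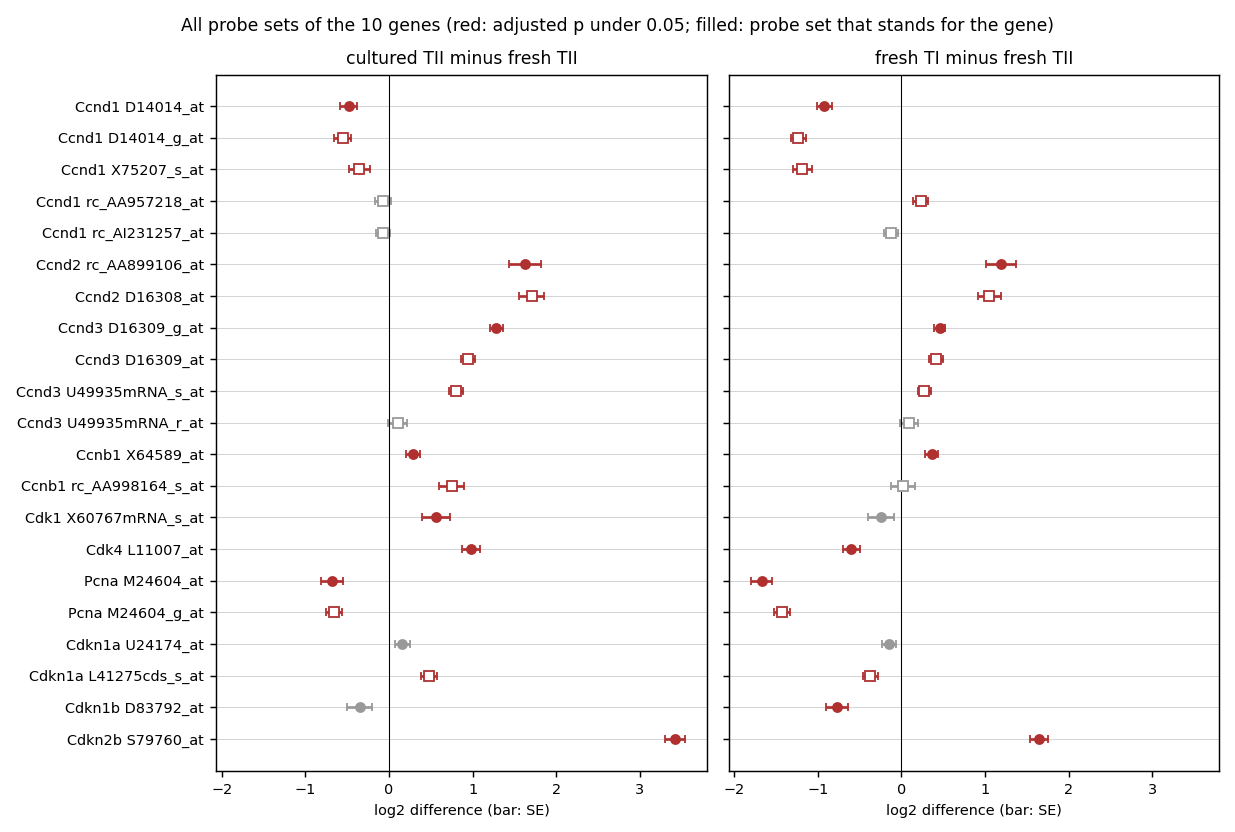
Log2 difference from fresh TII (horizontal axis, bar: SE) for all 21 probe sets of the 10 genes, in culture (left) and in fresh TI cells (right), with called probe sets in red and the probe set that stands for the gene filled. Cdkn2b, at 3.42 in culture, and Pcna, at -1.67 in fresh TI, mark the ends of the range, and of the Ccnd1 probe sets 3 were called lower in both panels and 2 were not.

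The mitotic pair Cdk1 and Ccnb1 rose slightly in culture, and the rise was uneven between the cultured arrays. The Cdk1 probe set X60767mRNA_s_at read 5.25, 5.12, 5.13 and 5.15 on fresh TII arrays, 5.21, 5.79 and 6.18 in culture, and 5.03, 4.99, 4.77 and 4.90 on fresh TI arrays. Cultured replicate 1 lay among the fresh TII arrays and the other cultured arrays above them. The log2 difference of culture from fresh TII was 0.57 ± 0.17 (adjusted p = 0.0188). It was 0.34 without cultured replicate 3 (adjusted p = 0.0872), 0.53 without replicate 2 (adjusted p = 0.0666) and 0.83 without replicate 1 (adjusted p = 0.000109).

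On TI arrays Cdk1 lay below every fresh TII array, yet the difference of -0.24 ± 0.16 did not pass the test (adjusted p = 0.204). A fit on only the fresh TII and TI arrays, whose spread leaves out the cultured arrays, gave an adjusted p of 0.0217 for the same difference, and leaving out cultured replicate 1 gave 0.0462. Fresh TI minus culture was -0.81 ± 0.17 (adjusted p = 0.00141), and -0.58 without cultured replicate 3 (adjusted p = 0.00447).

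The Ccnb1 probe set X64589_at read 6.19, 6.15, 6.16 and 6.21 on fresh TII arrays, 6.29, 6.66 and 6.44 in culture, and 6.46, 6.56, 6.54 and 6.61 on fresh TI arrays. Every cultured and TI array lay above the fresh TII arrays, and cultured and TI arrays overlapped. The rise in culture was 0.29 ± 0.09 (adjusted p = 0.0189), and 0.19 without cultured replicate 2 (adjusted p = 0.107). Fresh TI exceeded fresh TII by 0.36 ± 0.08 (adjusted p = 0.00223) and differed from culture by 0.08 ± 0.09 (adjusted p = 0.444).

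The second Ccnb1 probe set, rc_AA998164_s_at, was dim, with a mean above that of only 6.5% of probe sets. It read 2.54, 2.34, 2.55 and 2.34 on fresh TII arrays, 2.74, 3.23 and 3.60 in culture, and 2.38, 2.40, 2.5 and 2.56 on fresh TI arrays. The cultured arrays stood above the rest, with replicate 1 lowest as for Cdk1. The rise in culture was 0.75 ± 0.15 (adjusted p = 0.00177), but fresh TI and fresh TII differed by 0.02 ± 0.14 (adjusted p = 0.91). The Ccnb1 probe sets therefore disagree on whether TI cells differed from fresh TII cells and agree on the direction in culture.

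Other genes of mitosis and replication were uneven too. Of the 32 measured genes of these 2 lists, 20 (62.5%) were lowest on cultured replicate 1 and 20 (62.5%) were highest on replicate 3 among the cultured arrays. Over all genes 34.1% were lowest on replicate 1 and 33.5% were highest on replicate 3. Mcm6, a subunit of the replicative helicase, read 5.69, 6.02 and 6.62 in cultured replicates 1 to 3, and Cdc20, an activator of the anaphase-promoting complex, read 4.77, 5.12 and 5.40. Stmn1, a microtubule-destabilising protein, read 5.19, 5.68 and 6.22. This pattern was seen in the data and then counted, and no test was made of it.

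The cultured arrays also differed in their marker lists, some of them along the same order of replicates. Type I markers read 8.15, 7.83 and 7.50 in replicates 1 to 3, and type II markers 7.34, 7.00 and 6.85. Single genes went the other way, with Pdpn of the type I list at 9.20, 9.37 and 9.47. Lyz2 of the type II list read 9.97, 10.49 and 10.75. Macrophage and leukocyte markers read 5.27, 5.46 and 5.75. Of this list the leukocyte tetraspanin Cd53 read 5.69, 6.47 and 7.63, and Cd74 read 6.74, 7.42 and 8.07. Cd74 was highest in fresh TII cells, with a mean of 11.03 against 9.13 in fresh TI. Cd14, Aif1, Itgam, Cd8a, Cd3g, Cd3d and Coro1a rose in the same order of replicates. The pan-leukocyte marker Ptprc did so only slightly, from 5.33 to 5.40. Of the list, Csf1r (4.67, 4.75 and 4.62), Cd4 (5.72, 5.45 and 5.69) and Ms4a2 did not follow the order. Fibroblast and smooth muscle markers, at 6.47, 6.49 and 6.07, did not follow the order. Here single genes ran in opposite directions. The proteoglycan Dcn went from 6.63 to 8.05 and 8.60 and the collagen Col3a1 from 6.90 and 6.85 to 4.40. Others were nearly level, such as Fbln5 at 7.83 to 7.96 and Bgn at 9.59 to 9.76. The part of these marker levels, or of other cells, in the Cdk1 and Ccnb1 values was not tested.

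**Figure D4:**
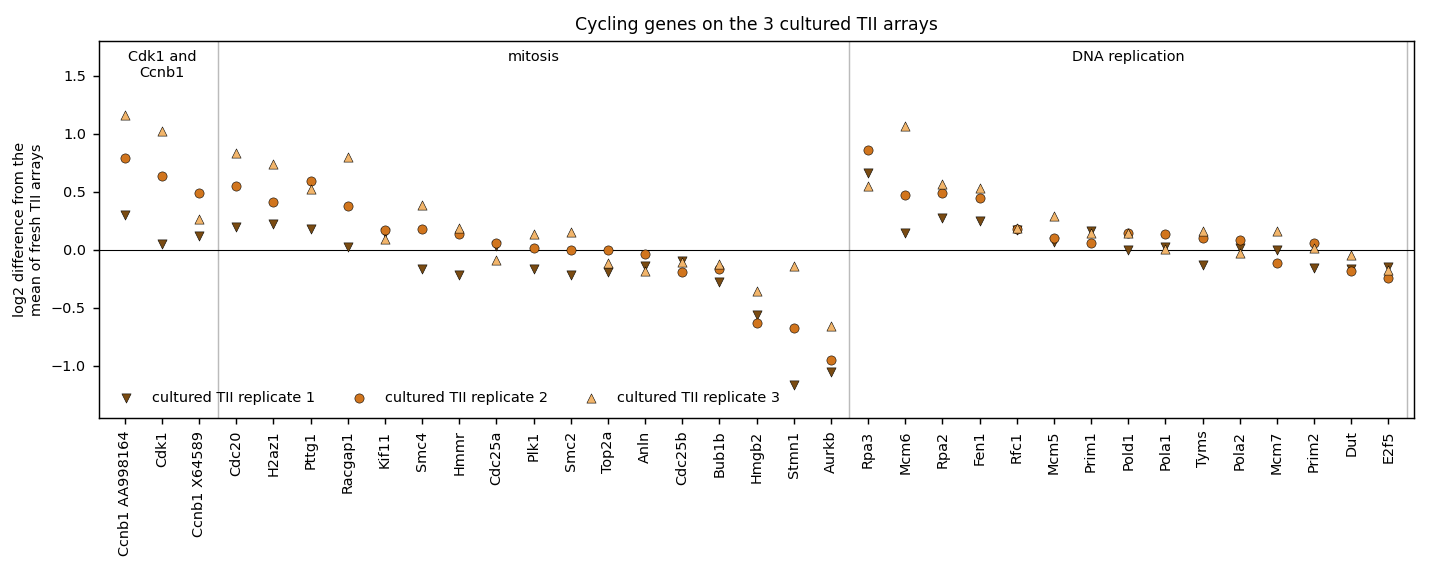
Log2 difference of each cultured TII array from the mean of the fresh TII arrays (vertical axis) for Cdk1, both Ccnb1 probe sets and the 32 measured mitosis and DNA replication genes (horizontal axis), 1 symbol per cultured replicate. Replicate 1 is the lowest symbol for 20 of the 32 genes and replicate 3 the highest for 20.

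Pcna was highest in fresh TII cells, lower in culture and lowest in fresh TI cells. Its probe set M24604_at read 9.11, 9.10, 9.16 and 9.16 on fresh TII arrays, 8.39, 8.45 and 8.52 in culture, and 7.35, 7.73, 7.72 and 7.05 on fresh TI arrays. The groups did not overlap, and TI replicates 2 and 3, with the highest type II marker means among TI arrays, also had the highest Pcna of that group. Pcna fell by 0.68 ± 0.14 in culture (adjusted p = 0.00153), and the difference of fresh TI from fresh TII was -1.67 ± 0.13, a 3.19-fold lower level (adjusted p = 3.14e-07). Fresh TI minus culture was -0.99 ± 0.14 (adjusted p = 6.79e-05). The second probe set, M24604_g_at, gave -0.66, -1.43 and -0.77 for these comparisons (adjusted p = 0.000158, 6.65e-08 and 3.74e-05).

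The inhibitor Cdkn2b had the widest range of group means of the 10 genes, 3.42 on the log2 scale. Its single probe set S79760_at read 5.04, 5.36, 5.24 and 5.32 on fresh TII arrays, 8.69, 8.69 and 8.59 in culture, and 6.54, 6.96, 7.08 and 6.95 on fresh TI arrays. Fresh TII arrays lay below the median probe set of the table (5.49), cultured arrays were more than 3 log2 units higher, and TI arrays stood between without overlap. Cdkn2b rose by 3.42 ± 0.12 in culture, 10.7-fold (adjusted p = 2.57e-10). In fresh TI it exceeded fresh TII by 1.64 ± 0.11, 3.12-fold (adjusted p = 1.04e-07), and fresh TI minus culture was -1.77 ± 0.12, a 3.42-fold lower level (adjusted p = 1.29e-07). Cdkn2b thus rose in culture together with its target Cdk4, while in fresh TI cells Cdkn2b was higher and Cdk4 lower than in fresh TII.

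Cdkn1a differed between its 2 probe sets in size but not in the order of the groups. The brighter, U24174_at, read 7.77, 7.98, 7.67 and 7.86 on fresh TII arrays, 8.03, 8.03 and 7.87 in culture, and 7.68, 7.61, 7.59 and 7.78 on fresh TI arrays. Fresh TII arrays overlapped with both other groups. Its differences from fresh TII were 0.16 ± 0.09 in culture (adjusted p = 0.201) and -0.15 ± 0.08 in fresh TI (adjusted p = 0.126), the latter 0.03 after quantile normalization. Fresh TI minus culture was -0.31 ± 0.09 (adjusted p = 0.00887), and -0.05 after quantile normalization (adjusted p = 0.694).

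The other Cdkn1a probe set, L41275cds_s_at, read 6.83, 7.07, 6.80 and 7.00 on fresh TII arrays, 7.40, 7.41 and 7.40 in culture, and 6.53, 6.67, 6.34 and 6.68 on fresh TI arrays. Here no groups overlapped. It rose by 0.47 ± 0.10 in culture (adjusted p = 0.00167), was -0.38 ± 0.09 in fresh TI minus fresh TII (adjusted p = 0.00392), and was -0.85 ± 0.10 in fresh TI minus culture (adjusted p = 1.3e-05).

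Cdkn1b was lowest in fresh TI cells, the reverse of Cdkn2b against fresh TII. Its single probe set D83792_at read 6.419, 6.846, 6.981 and 6.623 on fresh TII arrays, 6.399, 6.276 and 6.420 in culture, and 6.19, 5.92, 6.07 and 5.61 on fresh TI arrays. TI arrays lay below all others, and the cultured arrays lay at the low end of the fresh TII range, overlapping it only at fresh TII replicate 1. Fresh TI minus fresh TII was -0.77 ± 0.14 (adjusted p = 0.000496). Fresh TI minus culture was -0.42 ± 0.15 (adjusted p = 0.0251), above 0.05 without cultured replicate 1 (0.0633), cultured replicate 3 (0.0721) or TI replicate 4 (0.0602). Culture minus fresh TII was -0.35 ± 0.15 (adjusted p = 0.0851), and passed the test without fresh TII replicate 1 (-0.45, adjusted p = 0.0289) or TI replicate 4 (0.0383).

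Among other genes of the cell cycle, 46 were measured. Culture against fresh TII called 14 of them, 9 higher and 5 lower, a share near that of all genes. Fresh TI against fresh TII called 16 (7 higher, 9 lower), and fresh TI against culture called 19 (5 higher, 14 lower), both below the share of all genes. Many of these genes were dim: 21 of the 46 had a probe set at or above the median brightness of the table.

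In the list of other cyclins and cyclin-dependent kinases, 3 of 6 measured genes rose and 1 fell in culture. Over all genes 20.5% rose and 14.0% fell. Ccng1, a p53 target, rose by 2.33 ± 0.11 (adjusted p = 4.73e-09), from a mean of 6.26 to 8.59, and its TI mean was 6.37. Cdk5 rose by 0.68 ± 0.07 (adjusted p = 4.55e-06) and Cdk7, the Cdk-activating kinase, by 0.48 ± 0.11 (adjusted p = 0.00365). Cdk2 fell by 0.35 ± 0.08 (adjusted p = 0.00358), but its other probe set D28753_i_at gave -0.02 (adjusted p = 0.944). Fresh TI against fresh TII called 0 of the 6, and fresh TI against culture called 1 higher (Cdk2) and 3 lower (Ccng1, Cdk5 and Cdk7). Over all genes these comparisons called 54.2% and 60.0%.

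Of the 8 measured inhibitor and checkpoint genes, 0 rose and 2 fell in culture, where 20.5% of all genes rose and 14.0% fell. The stress-induced Gadd45a fell by 0.90 ± 0.15 (adjusted p = 0.000395) and the antiproliferative Btg1 fell by 0.77 ± 0.13 (adjusted p = 0.000489). Both were also lower in fresh TI than in fresh TII, with differences of -0.93 ± 0.14 (adjusted p = 0.000156) and -1.75 ± 0.12 (adjusted p = 1.59e-07). The retinoblastoma gene Rb1 was higher in fresh TI than in fresh TII by 0.34 ± 0.12 (adjusted p = 0.0274), whereas its other probe set D25233cds_at gave 0.10 (adjusted p = 0.492).

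Of the 15 measured DNA replication genes, 4 rose and 0 fell in culture, where 20.5% of all genes rose and 14.0% fell. Those that rose were the single-strand binding subunits Rpa3 (0.69 ± 0.13, adjusted p = 0.00118) and Rpa2 (0.44 ± 0.09, adjusted p = 0.00163), Mcm6 (0.56 ± 0.18, adjusted p = 0.0288) and the flap endonuclease Fen1 (0.41 ± 0.08, adjusted p = 0.00116). Of the other Mcm6 probe sets, U17565_g_at rose by 0.60 (adjusted p = 0.0157) and U17565_at gave 0.27 (adjusted p = 0.099). Fresh TI against fresh TII called 3 higher and 3 lower of the 15. Dut, which removes dUTP from the nucleotide pool, was lower by a difference of -0.67 ± 0.07 (adjusted p = 6.65e-06) and Rpa3 by -0.60 ± 0.12 (adjusted p = 0.00156), while the clamp loader subunit Rfc1 was higher by 0.25 ± 0.07 (adjusted p = 0.00818). The other Rfc1 probe sets gave 0.28 for AF030050_at (adjusted p = 0.0142) and 0.19 for AF059678_s_at (adjusted p = 0.111). Fresh TI against culture called 0 higher and 4 lower. Over all genes fresh TI against fresh TII called 33.0% higher and 21.2% lower, and fresh TI against culture 34.2% and 25.8%.

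Of the 17 measured mitosis genes, 2 rose and 2 fell in culture, where 20.5% of all genes rose and 14.0% fell. Cdc20 rose by 0.53 ± 0.14 (adjusted p = 0.00812) and the securin Pttg1 by 0.43 ± 0.09 (adjusted p = 0.00291). The kinase Aurkb fell by 0.89 ± 0.16 (adjusted p = 0.000597) from a dim level of 4.61, and Hmgb2 fell by 0.52 ± 0.10 (adjusted p = 0.00115) from a dimmer one of 3.29. The other Hmgb2 probe set, D84418_r_at, gave -0.23 (adjusted p = 0.261). Fresh TI against fresh TII called 3 higher and 4 lower. Stmn1 was lower by a difference of -1.76 ± 0.26 (adjusted p = 0.000146) and the histone variant H2az1 by -0.82 ± 0.18 (adjusted p = 0.00256). The 3 higher genes had smaller differences, 0.38 ± 0.09 for Kif11 (adjusted p = 0.00459), 0.23 ± 0.08 for Bub1b (0.0225) and 0.22 ± 0.07 for Plk1 (0.0213). The other Bub1b probe set, rc_H31604_at, gave 0.17 (adjusted p = 0.0555). Fresh TI against culture called 3 higher and 6 lower. Over all genes fresh TI against fresh TII called 33.0% higher and 21.2% lower, and fresh TI against culture 34.2% and 25.8%.

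Genes that act on the D cyclins from growth factor signals were mostly lower than in fresh TII cells. Of 15 measured, 3 rose and 8 fell in culture, where 20.5% of all genes rose and 14.0% fell. In fresh TI against fresh TII 2 were higher and 10 lower, where all genes gave 33.0% and 21.2%. The transcription factors Fos and Egr1 had differences of -3.50 ± 0.11 and -3.50 ± 0.16 in culture (adjusted p = 9.02e-11 and 2.26e-09), and Jun fell by 2.09 ± 0.13 (adjusted p = 5.84e-08). Myc fell by 1.11 ± 0.10 in culture (adjusted p = 1.45e-06), and its difference in fresh TI was -2.54 ± 0.09 (adjusted p = 5.34e-10). The EGF receptor ligand Areg went the other way in culture, with a rise of 1.95 ± 0.12 (adjusted p = 4.5e-08), and was lower in fresh TI than in culture by a difference of -3.58 ± 0.12 (adjusted p = 3.73e-10). Ccnd1 was highest in fresh TII cells, where Fos, Egr1, Jun and Myc were also highest and Ccnd2 and Ccnd3 were lowest. Jun and Myc had higher means in culture than in fresh TI, as Ccnd1 had. Fos (7.607 in culture, 9.015 in fresh TI) and Egr1 (8.90 and 10.15) had the reverse order. The part of these factors in the D cyclin levels was not tested.

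The list of TGF-beta genes, which held ligands, receptors and Smads as inputs to Cdkn2b and also the Id family, moved in both directions. Of 13 measured, 2 rose and 3 fell in culture, where 20.5% of all genes rose and 14.0% fell. In fresh TI against fresh TII 6 were higher and 5 lower, where all genes gave 33.0% and 21.2%. In fresh TI against culture 3 were higher and 3 lower, where all genes gave 34.2% and 25.8%. The ligand Tgfb1 rose by 0.88 ± 0.12 in culture (adjusted p = 7.12e-05), from a mean of 6.04 to 6.92, with a TI mean of 6.37. The ligands Tgfb2 and Tgfb3 had their highest means in fresh TI, with 5.52, 5.72 and 5.98 for Tgfb2 and 6.68, 6.61 and 7.23 for Tgfb3 in fresh TII, culture and fresh TI. The receptor Tgfbr1 rose by 0.44 ± 0.15 (adjusted p = 0.0368). The genes that fell were the Id family of dominant negative transcription factors, with differences of -1.83 ± 0.33 for Id2 (adjusted p = 0.000695), -0.94 ± 0.09 for Id1 (adjusted p = 2.42e-06) and -0.56 ± 0.14 for Id3 (adjusted p = 0.00632). The other Id1 probe set, L23148_at, gave -0.12 (adjusted p = 0.31).

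The genes whose level followed Cdkn2b most closely over the 11 arrays were Eva1a (Pearson r = 0.993), Akr1b1 (0.990), Ankrd1 (0.987), Lama5 (0.986) and Fn1 (0.983). Fn1, which encodes fibronectin, had group means of 5.06, 10.7 and 7.32 in fresh TII, culture and fresh TI, and the stretch-responsive Ankrd1 had 5.15, 8.13 and 6.64. In all, 136 genes correlated with Cdkn2b at r over 0.9. For Ccnd2 the closest were the amyloid precursor App (0.977), the myosin light chain Myl12a (0.972), the small GTPase Rhoa (0.968), Dcakd (0.967) and the collagen Col4a5 (0.967), with 65 genes over 0.9. Myl12a had group means of 9.01, 10.6 and 10.3. The 11 points fall into 3 groups, so any gene with the same order and spacing of groups gives a high r, and these values are a description.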

How the data were processed

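Total RNA from 11 samples was hybridised to 11 arrays. The authors deposited processed log2 values, 1 for each probe set of each array. The summarisation, background correction and normalization behind them are not given in the sources used here, and the number of arrays limits precision. Values (1.37 to 13.16) were used as deposited. Of 8799 probe sets, 59 controls were left out and the other 8740 tested, dim ones included. Annotation named 1 gene for 7006, several for 308 and none for 1426. A gene's brightest probe set, by the mean of the 11 arrays, stood for it.

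A model with the 3 groups was fitted over the 11 arrays in limma 3.58.1 in R 4.3.3 (lmFit and eBayes), with Benjamini-Hochberg adjustment over 8740 probe sets and a threshold of 0.05. The fit was tested on simulated data. Alternatives were quantile normalization, median centring, matched standard deviations, no dim probe sets, an intensity trend, fits on 2 groups, a replicate block, the mean of a gene's probe sets, a stricter threshold of 0.01 and leaving out each array. Named are all 10 genes with every probe set, for each other list and comparison called genes from among the top 3 and bottom 3 by difference, and the 5 genes most similar to Cdkn2b and to Ccnd2. Fen1 in culture, Myc in culture and single genes of the marker lists were named after their values were seen. The genes and lists were chosen with earlier results of these data known. Promoter windows came from RefSeq.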

Additional observations from a re-analysis of the deposited data

Results flagged for a closer look

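In fresh TII cells the Cdk4 level of replicate 1 stood apart, at 8.02 against 7.75 to 7.77 on the other 3 arrays. Its gap to the nearest array was 0.926 of the group's range, above Dixon's critical value for 4 samples. This was 1 of 42 groups of 4 arrays examined, and chance alone marks about 1 in 20 such groups. The Cdk4 comparisons kept their direction and call without this array.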

How the results depend on the processing

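The 8 called genes of the 10 stayed at 8 to 9 for fresh TI minus fresh TII, 6 to 9 for culture minus fresh TII and 7 to 9 for fresh TI minus culture when each array was left out, and at 8 to 9, 6 to 9 and 6 to 10 under the other alternatives. Among the 46 other cell cycle genes, dropping dim probe sets, which left 21 genes, gave 7, 9 and 12 called in the same order of comparisons, and a threshold of 0.01 gave 10 for fresh TI minus fresh TII and 11 for fresh TI minus culture; leaving out arrays gave 13 to 17, 13 to 16 and 14 to 22. Signs turned only for probe sets that were not called: Ccnb1 rc_AA998164_s_at in fresh TI minus fresh TII (-0.13 with quantile normalization, -0.0238 with median centring, -0.21 with matched standard deviations, -0.0141 to 0.0546 leaving out arrays), Cdkn1a U24174_at there (0.0279, quantile), Ccnd3 U49935mRNA_r_at in fresh TI minus culture (0.0008 with matched standard deviations, -0.0927 to 0.0697 leaving out arrays), Ccnb1 X64589_at there (-0.0092 to 0.1762) and Ccnd1 rc_AI231257_at in culture minus fresh TII (-0.13 to 0.0078). The cause was not tested. Quantile normalization also took Ccnd3 D16309_at in fresh TI minus culture to -0.17 (adjusted p = 0.178), and matched standard deviations took Cdkn1a U24174_at there to -0.18 (adjusted p = 0.121). After removal of group means, arrays of different groups correlated at -0.20 to 0.28 over 10 pairs with the same replicate number. With different numbers the range was -0.27 to 0.23 over 30 pairs. With so few arrays these values cannot show whether same-number arrays shared animals or isolations. With the number as a replicate block, 8, 9 and 7 of the 10 genes and 16, 15 and 16 of the 46 were called, and Cdkn1b reached -0.42 in culture (adjusted p = 0.0353) and -0.35 in fresh TI minus culture (adjusted p = 0.0501). Without dim probe sets the share of higher genes among all called in fresh TI minus fresh TII went from 60.9% to 50.9%. The mean of Ccnb1 rc_AA998164_s_at exceeded that of 6.5% of probe sets, and signal over background was not analysed here.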
